A study of Mus musculus with 6 samples.

Results

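The globins and red cell genes examined here were Hba-a1, Hba-x, Hbb-y, Hbb-bh1, Alas2, Slc4a1 and Ahsp, 7 named genes of the 21370 gene symbols on the arrays. They were chosen by name, and their probes were found through the accession that the array design gives each probe. Of the 7 genes, 6 were matched to a probe by symbol and 7 probes were found in all, because Hbb-y had 2. Ahsp was not analysed here.

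Epidermis was taken from mouse embryos at embryonic day 16. They descended from floxed mice on a mixed 129SvEx:C57BL/6 background that were crossed with Cre mice on FVB/N. On each of 6 arrays a knockout was hybridised together with a wild-type littermate, labelled with different dyes, and 2 arrays each were given to the loss of Sox4 (Sox4 cKO), of Sox11 (Sox11 cKO) and of both genes (dcKO). A cKO is a deletion confined to a tissue, here by a Cre recombinase under the keratin 14 promoter, which is active in keratinocytes, from a line on FVB/N. Dorsal skin was split with dispase and the epidermis peeled off, and the sources name no step for the blood that remained and do not say how many embryos each RNA came from. Replicate 1 of each genotype had the knockout in Cy5 and replicate 2 had it in Cy3. The founding floxed mice also lacked Sox12, and neither the labels nor the methods say whether the embryos did.

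Red cells of the mouse embryo come in a succession of waves. Primitive red cells from the yolk sac carry embryonic globins, among them the alpha-like chain of Hba-x and the beta-like chains of Hbb-y and Hbb-bh1. Definitive red cells from the fetal liver follow and carry the adult-type chains, alpha from Hba-a1 and Hba-a2 and beta from the adult Hbb genes. Alas2 encodes the first enzyme of haem synthesis in red cells, and Slc4a1 encodes band 3, the anion exchanger of the red cell membrane. Blood vessels run through the dermis, and the epidermis has none.

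The sequences upstream of an adult-type globin, 2 embryonic globins and the haem enzyme are shown first, so that the regulatory letters of genes with different roles can be set side by side. They are the 4 of the 7 genes that the RefSeq promoter table for the GRCm38.p6 assembly held, and the 250 bases before the annotated start are printed 5′ to 3′ on the strand of the gene. Capitals mark 4 short motifs on either strand. GATAA belongs to the sites that the red cell factor GATA1 binds, and CACCC is the core of those of KLF1. CCAAT and the TATA box, searched as TATAA, are common promoter elements. The adult-type alpha globin Hba-a1 lies on the plus strand at chr11:32283422-32283671, and the embryonic Hba-x lies upstream of it at chr11:32276350-32276599 on the same strand. The embryonic beta-like globin Hbb-y is on the minus strand at chr7:103853208-103853457, and Alas2 is on the plus strand at chrX:150547167-150547416.
Hba-a1: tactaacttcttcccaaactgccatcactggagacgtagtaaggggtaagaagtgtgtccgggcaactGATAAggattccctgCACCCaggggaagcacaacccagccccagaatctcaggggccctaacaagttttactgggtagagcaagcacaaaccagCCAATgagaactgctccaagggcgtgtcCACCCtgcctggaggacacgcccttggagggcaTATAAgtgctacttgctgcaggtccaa
Hba-x: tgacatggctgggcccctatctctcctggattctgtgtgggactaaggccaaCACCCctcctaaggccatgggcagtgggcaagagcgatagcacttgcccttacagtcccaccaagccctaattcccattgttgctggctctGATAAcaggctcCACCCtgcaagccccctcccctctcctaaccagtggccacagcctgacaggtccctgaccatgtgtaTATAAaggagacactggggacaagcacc
Hbb-y: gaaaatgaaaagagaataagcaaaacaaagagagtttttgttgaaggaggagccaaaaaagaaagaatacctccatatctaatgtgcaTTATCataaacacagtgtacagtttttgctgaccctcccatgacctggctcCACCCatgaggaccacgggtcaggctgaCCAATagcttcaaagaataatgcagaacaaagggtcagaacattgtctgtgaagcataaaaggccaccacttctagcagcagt
Alas2: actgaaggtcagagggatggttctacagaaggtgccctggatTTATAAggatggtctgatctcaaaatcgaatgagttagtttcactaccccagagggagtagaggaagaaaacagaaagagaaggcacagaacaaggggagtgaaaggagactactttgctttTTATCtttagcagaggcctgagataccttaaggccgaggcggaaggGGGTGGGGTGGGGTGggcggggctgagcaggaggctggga

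All 4 windows held GATAA and CACCC. Hba-a1 had 2 matches of CACCC and 1 of each other motif, with its TATAA at bases 27 to 23 before the start and its GATAA at 182 to 178. Hba-x had the same matches without CCAAT. Hbb-y had 1 match each of GATAA, on the opposite strand, and of CACCC and CCAAT, and no TATAA. In Alas2 all matches but 1 were on the opposite strand, with 1 of GATAA, 3 of CACCC within bases 40 to 26 before the start, and TATAA on both strands around base 207. The 2 of TATAA in Alas2 were the only matches that overlapped. Over 32851 promoter windows of the same length, 22.6% held GATAA, 52.0% held CACCC, 33.8% held CCAAT and 22.8% held TATAA, and 0.968% held all 4, as Hba-a1 did. These matches are descriptions of the sequence, and nothing was measured here about binding.

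Hba-a1 was well above background in all 12 samples and differed widely among the wild types. Levels are log2 channel values after normalization, in arbitrary units. In the wild type Hba-a1 was at 14.30 and 13.65 on replicates 1 and 2 of Sox4 cKO, at 13.33 and 11.51 on those of Sox11 cKO and at 13.80 and 13.07 on those of dcKO. In the knockout it was at 14.68 and 13.13 in Sox4 cKO, at 13.76 and 12.52 in Sox11 cKO and at 13.35 and 14.51 in dcKO. Both samples of Sox11 cKO replicate 2 were lower than the other 10. From the lowest to the highest wild type the probe differed by 6.89-fold, and the wild-type and knockout ranges overlapped (11.51 to 14.30 and 12.52 to 14.68). Each level is of 1 sample, so the order of neighbouring samples cannot be set against a spread. In whole tissue, fewer red cells and less RNA per cell cannot be told apart.

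Within an array, the log2(knockout/wild type) of Hba-a1 was 0.38 and −0.52 on the Sox4 cKO arrays, 0.43 and 1.01 on the Sox11 cKO arrays and −0.45 and 1.44 on the dcKO arrays. The sign was the same on both Sox11 cKO arrays and opposite on the Sox4 cKO and the dcKO arrays. The mean was −0.07 ± 0.63 (SD, n = 2) for Sox4 cKO, 0.72 ± 0.41 for Sox11 cKO and 0.49 ± 1.33 for dcKO. None passed the threshold in limma (adjusted p = 0.99, 0.729 and 0.716). The 95% confidence intervals were −0.89 to 0.74, −0.10 to 1.53 and −0.32 to 1.31, so changes of over 2-fold in either Sox11 cKO or dcKO lie within them.

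Alas2, the haem synthesis enzyme, followed Hba-a1. In the wild type it was at 8.54 and 7.86 on the Sox4 cKO arrays, at 7.51 and 6.15 on the Sox11 cKO arrays and at 8.08 and 7.19 on the dcKO arrays. The log2(knockout/wild type) was 0.36 and −0.28 in Sox4 cKO, 0.31 and 0.67 in Sox11 cKO and −0.48 and 1.53 in dcKO. Its knockout levels were 8.90 and 7.59, 7.82 and 6.82, and 7.60 and 8.72 in the same order. As with Hba-a1, the lowest wild type was that of Sox11 cKO replicate 2 and the largest rise was on dcKO replicate 2. The means were 0.04 ± 0.45 (SD, n = 2), 0.49 ± 0.26 and 0.52 ± 1.42 in Sox4 cKO, Sox11 cKO and dcKO, with adjusted p = 0.994, 0.817 and 0.681 in limma. Leaving out dcKO replicate 1 gave 1.60 in dcKO (adjusted p = 0.0285), and leaving out dcKO replicate 2 gave −0.55 (adjusted p = 0.744), so a single array set both the sign and the call.

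Slc4a1, the band 3 anion exchanger, was dim but well above background in all 12 samples. Its wild-type level was 6.57 and 6.27 on the Sox4 cKO arrays, 6.26 and 5.52 on the Sox11 cKO arrays and 6.75 and 5.52 on the dcKO arrays. The log2(knockout/wild type) was 0.83 and −0.23 in Sox4 cKO, −0.51 and 0.14 in Sox11 cKO and −0.70 and 0.84 in dcKO. It had opposite signs on the 2 arrays of every genotype, and its sign differed from that of Hba-a1 on Sox11 cKO replicate 1 alone. The means were 0.30 ± 0.75 (SD, n = 2), −0.18 ± 0.46 and 0.07 ± 1.09, with adjusted p = 0.93, 0.948 and 0.975 in limma.

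**Figure D1:**
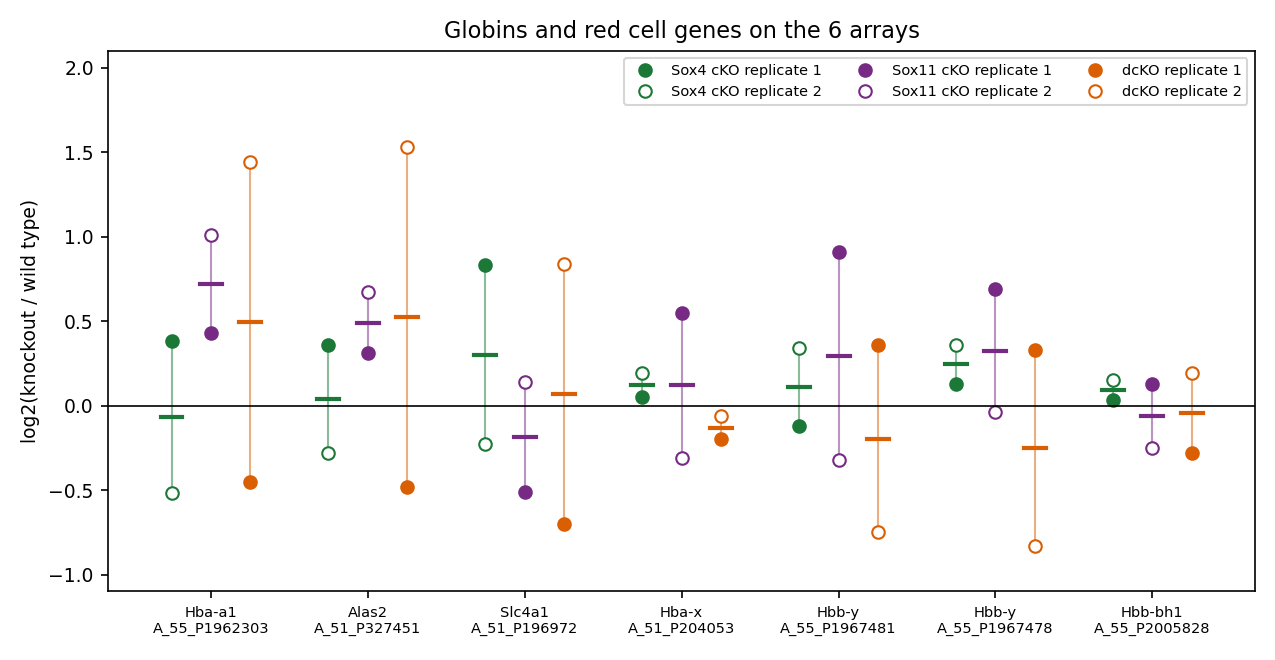
log2(knockout/wild type) of each probe on the 6 arrays, by gene and probe (x axis). Filled points are replicate 1, open points replicate 2, thin lines join the 2 arrays of a genotype, and thick bars are their mean. Hba-a1 and Alas2 lie on both sides of 0 in Sox4 cKO and in dcKO, with dcKO running from −0.45 to 1.44 and from −0.48 to 1.53.

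The embryonic globins were measured less strongly and did not follow Hba-a1. Both Hbb-y probes were well above background in all 12 samples. By its brighter probe (A_55_P1967481) the wild-type level was 8.53 and 7.81 on the Sox4 cKO arrays, 8.20 and 7.18 on the Sox11 cKO arrays and 7.17 and 7.30 on the dcKO arrays. The log2(knockout/wild type) was −0.12 and 0.34 in Sox4 cKO, 0.91 and −0.32 in Sox11 cKO and 0.36 and −0.75 in dcKO. Its sign was opposite to that of Hba-a1 on 5 of the 6 arrays, the exception being Sox11 cKO replicate 1. The means were 0.11 ± 0.33 (SD, n = 2), 0.30 ± 0.87 and −0.20 ± 0.79, with adjusted p = 0.973, 0.86 and 0.87 in limma.

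The second Hbb-y probe (A_55_P1967478) gave 0.13 and 0.36 in Sox4 cKO, 0.69 and −0.04 in Sox11 cKO and 0.33 and −0.83 in dcKO. It differed in sign from the first only on Sox4 cKO replicate 1, where both values were near 0. Its means were 0.25, 0.33 and −0.25, with adjusted p = 0.897, 0.801 and 0.765 in limma.

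Hba-x, the embryonic alpha-like globin, lay near background. Its wild-type level ranged from 5.54 to 6.33 and was well above background in all 6 wild-type samples, against 4 of the 6 knockout samples. The knockouts that missed it were those of Sox11 cKO replicate 2 and dcKO replicate 1. The log2(knockout/wild type) was 0.05 and 0.19 in Sox4 cKO, 0.55 and −0.31 in Sox11 cKO and −0.20 and −0.06 in dcKO. The means were 0.12 ± 0.10 (SD, n = 2), 0.12 ± 0.61 and −0.13 ± 0.10, with adjusted p = 0.954, 0.935 and 0.883 in limma. Hbb-bh1, the other embryonic beta-like globin, was well above background in 1 of the 12 samples, the wild type of dcKO replicate 1, and its levels of 4.96 to 5.40 allow no fold in any genotype.

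Over the whole list, 0 of the 7 probes were called in any genotype, which took an adjusted p under 0.05 together with a log2 fold change beyond 1.5 in either direction. The share called over all probes was 0.00539% for Sox4 cKO, 0% for Sox11 cKO and 0.207% for dcKO. At an unadjusted p under 0.05 there were 0 of the 7 member probes in each genotype, against 3434, 3922 and 5506 of all 55681 probes. The median log2 fold change of the 6 genes was 0.10 for Sox4 cKO, 0.21 for Sox11 cKO and 0.01 for dcKO, against 0.00, 0.00 and −0.01 over all genes. With a filter on dim probes, which left out Hbb-bh1, the list's medians were 0.11, 0.30 and 0.07. Differences between genotypes were not called either (0 of 7 probes, lowest adjusted p = 0.735), where 0.131% of all probes differed between dcKO and Sox4 cKO, 0.136% between dcKO and Sox11 cKO and 0.0018% between the single knockouts.

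Both arrays of a genotype agreed in sign for 2 of the 6 genes in Sox4 cKO, for 2 in Sox11 cKO and for 1 in dcKO. Those of Sox4 cKO were Hba-x and Hbb-bh1, and Hbb-bh1 was not well above background in any sample of these arrays. Over all genes the shares were 46.5%, 45.3% and 53.5%. The residual SD of the fit was 0.99 for Hba-a1, 0.95 for Alas2 and 0.93 for Slc4a1 on the log2 scale. Each was larger than that of 99.6% of the 20140 probes detected on every array, whose median was 0.14. For Hbb-y the residual SD was 0.67 and 0.50 by its 2 probes, larger than that of 98.8% and 97.4%. The 2 arrays of a genotype thus differed more for these genes than for most transcripts of the series.

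**Figure D2:**
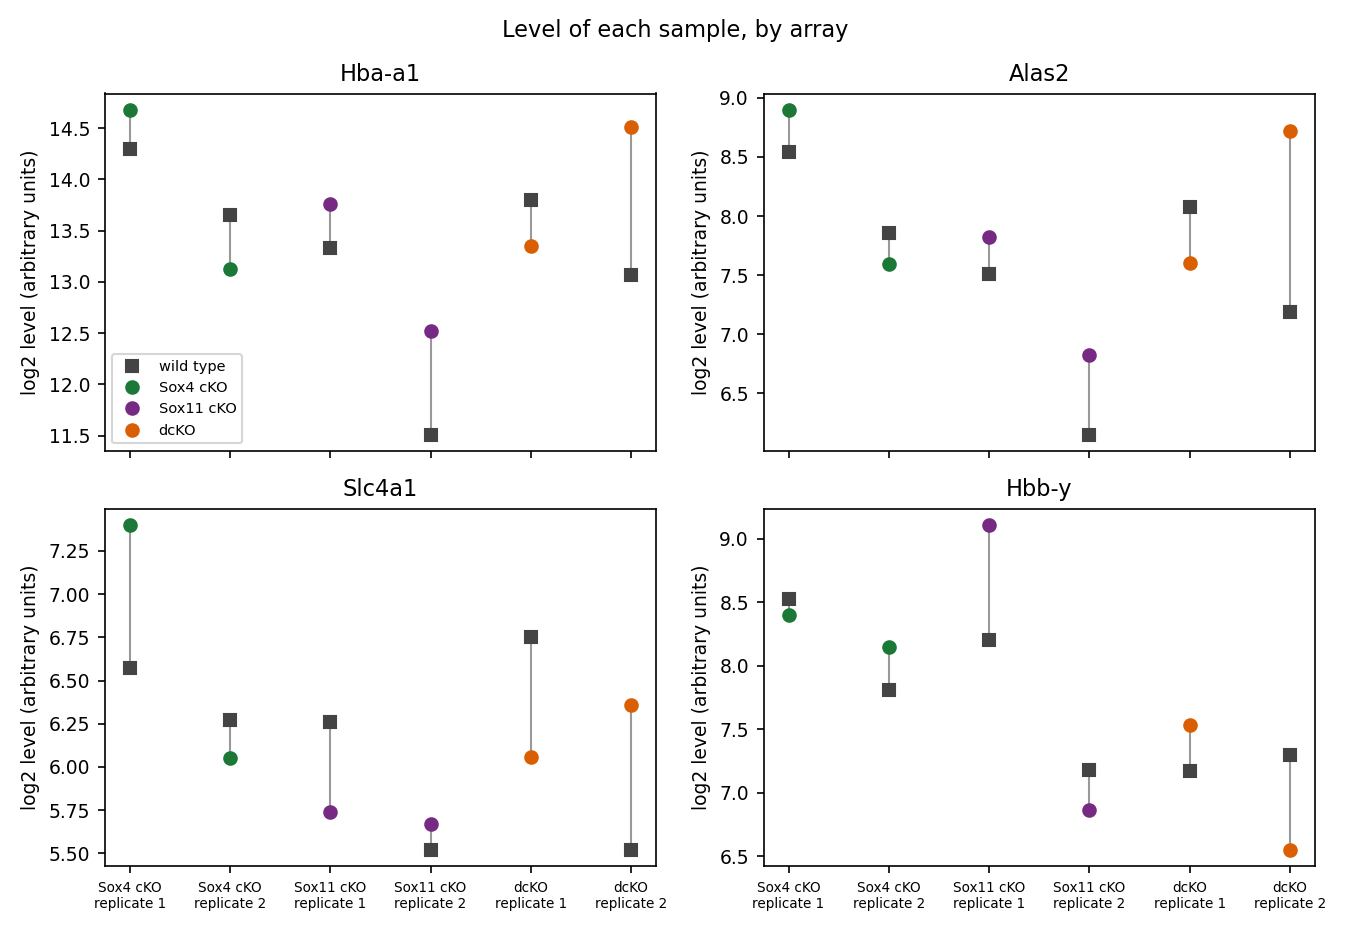
log2 level of Hba-a1, Alas2, Slc4a1 and Hbb-y in each sample (y axes, each with its own range), by array (x axis). Squares are wild type, circles the knockout of the same array, and grey lines join them. Hba-a1 and Alas2 were lowest in both samples of Sox11 cKO replicate 2, with wild types at 11.51 and 6.15.

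How closely the genes moved together was examined over the 6 arrays, on log2(knockout/wild type), for the 4 other genes detected on every array. With Hba-a1, Alas2 correlated at Pearson's r = 0.969 (exact permutation p = 0.00556, adjusted over the 4 relations 0.0222, two-sided) and Spearman's rho = 0.886 (exact p = 0.0333, adjusted 0.133). Its r was 0.983 without the 2 arrays farthest from the median of Hba-a1, and 0.966 with the dye coefficient removed. Hbb-y correlated at r = −0.68 (exact p = 0.133, adjusted 0.217) and rho = −0.60 (exact p = 0.242, adjusted 0.322), and r was −0.425 without the 2 farthest arrays. Slc4a1 gave r = 0.673 (exact p = 0.163, adjusted 0.217) and rho = 0.60 (exact p = 0.242, adjusted 0.322), and Hba-x gave r = −0.196 (exact p = 0.729, adjusted 0.729) and rho = −0.314 (exact p = 0.564, adjusted 0.564). Only the Pearson correlation of Alas2 passed after adjustment. The permutations treated the 6 arrays as interchangeable, although pairs of them shared a genotype, and the p-values do not account for that. Each dye orientation held 3 arrays, too few for a correlation within it.

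The difference of Hbb-y (brighter probe) minus Hba-a1 within an array was −0.50 and 0.86 in Sox4 cKO, 0.48 and −1.33 in Sox11 cKO and 0.81 and −2.19 in dcKO. It was widest on dcKO replicate 2, where the adult-type chain was up and the embryonic chain down in the knockout. With the second Hbb-y probe the same array gave −2.27. These are differences of log2 ratios, and they had opposite signs on the 2 arrays of every genotype.

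**Figure D3:**
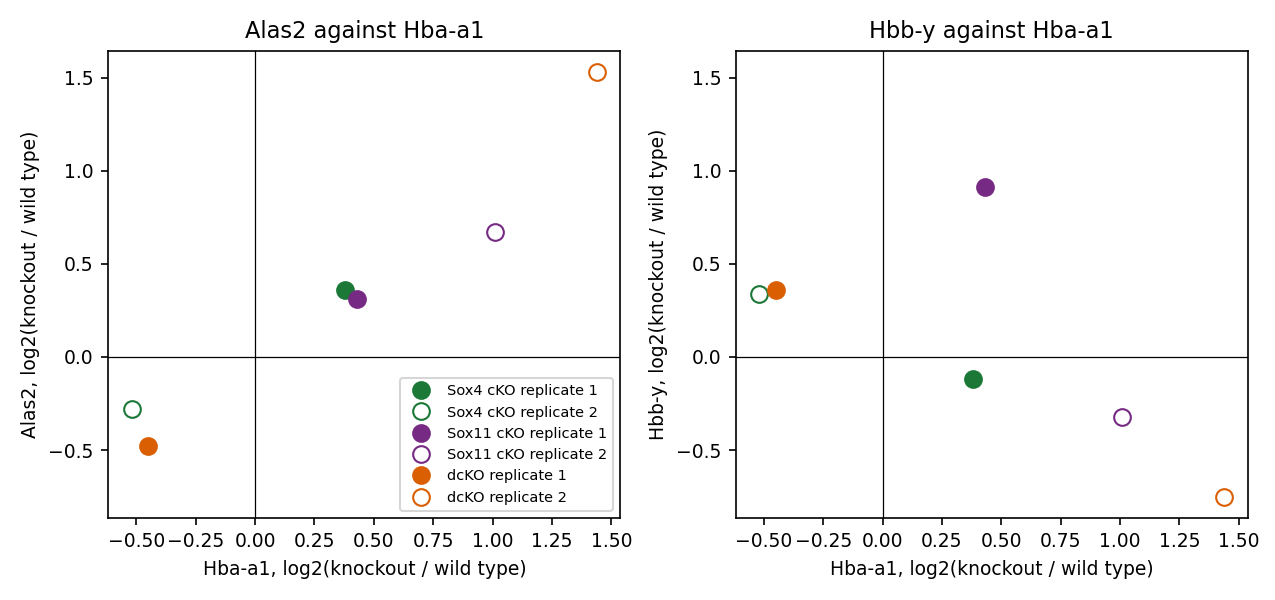
log2(knockout/wild type) of Alas2 (left) and of the brighter Hbb-y probe (right) against that of Hba-a1, 1 point per array. Filled points are replicate 1 and open points replicate 2. Alas2 has the sign of Hba-a1 on all 6 arrays (r = 0.969), and Hbb-y has it on 1 of 6 (r = −0.68).

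The other adult-type globins varied as Hba-a1 did. Hba-a2, the second adult alpha gene, gave 0.72 and −0.54 in Sox4 cKO, 0.67 and 0.76 in Sox11 cKO and −0.20 and 1.03 in dcKO. Hbb-bt, an adult beta gene of the C57BL/6 type, gave 0.35 and −0.39, 0.51 and 0.71, and −0.69 and 1.29. Hbb-b1 gave 0.35 and −0.65, 0.29 and 1.18, and −0.65 and 1.59, and Hbb-b2 gave 0.32 and −0.44, 0.29 and 1.03, and −0.59 and 1.33. All 4 had the sign of Hba-a1 on all 6 arrays, with r of 0.929 to 0.997 over the arrays. None passed the threshold, and their mean in Sox11 cKO was between 0.61 and 0.74 (adjusted p = 0.717 to 0.769 in limma). The transcripts of the alpha genes are nearly identical, as are those of the beta genes, so a probe may bind more than the gene it is named for. Hbb-bs had no named probe.

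1 of these probes set the arrays apart by level. Hbb-b2 was at 9.50 and 8.97 in the wild types of the Sox4 cKO arrays and at 9.82 and 8.53 in the knockouts. On the Sox11 cKO arrays it was at 12 and 10.29 in the wild types and at 12.29 and 11.31 in the knockouts. On the dcKO arrays it was at 11.54 and 10.89 in the wild types and at 10.95 and 12.22 in the knockouts. The 4 samples of the Sox4 cKO arrays, wild type and knockout alike, thus lay below the other 8 without overlap (8.53 to 9.82 against 10.29 to 12.29), and the difference of the means was −2.23 on the log2 scale. Hba-a2, Hbb-b1 and Hbb-bt did not show this, since their ranges overlapped and their means on the Sox4 cKO arrays were higher by 0.32, 0.56 and 0.59. The comparison was chosen after the values were seen. Both samples of each Sox4 cKO array shared the lower level, and whether it affected the knockout over wild-type ratios of this probe was not tested. Hbb-b1 and Hbb-b2 are names of the beta genes of other mouse strains, and the embryos had a mixed background. Whether strain origin had a part in these levels was not tested.

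**Figure D4:**
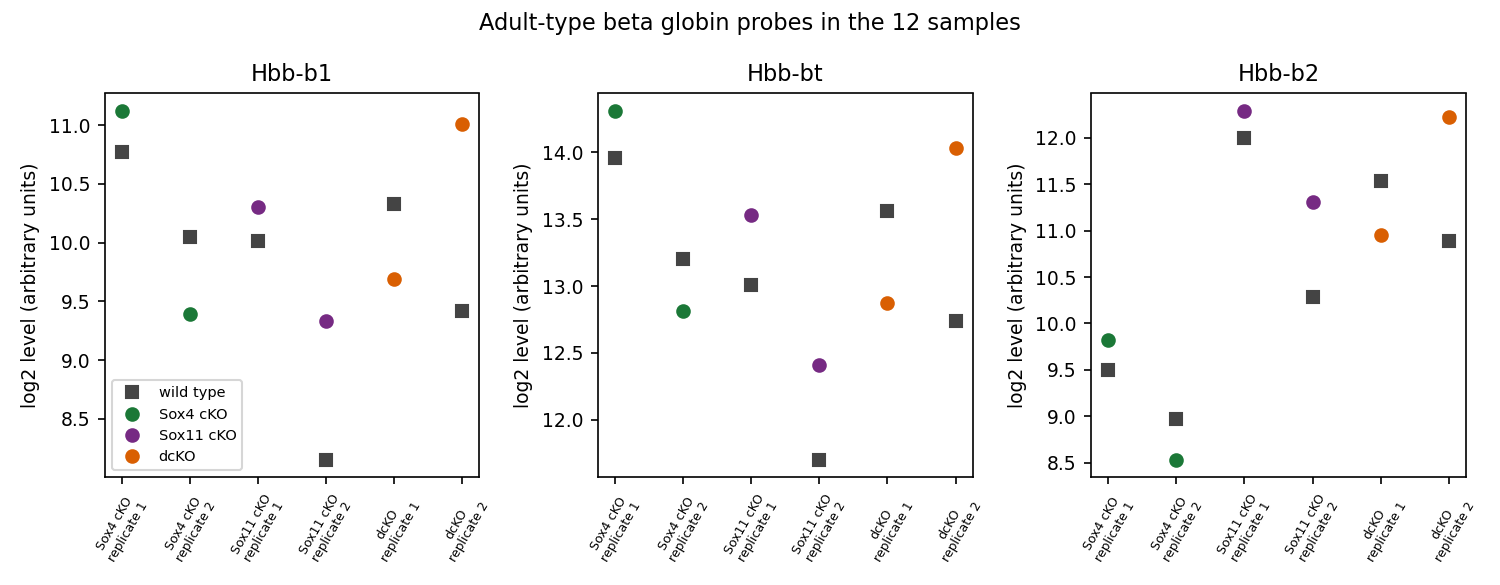
log2 level of 3 adult-type beta globin probes in the 12 samples (y axes, each with its own range), by array (x axis). Squares are wild type and circles the knockout of the same array. Hbb-b2 lies at 8.53 to 9.82 in the 4 samples of the Sox4 cKO arrays and at 10.29 or above in the other 8, while the ranges of Hbb-b1 and Hbb-bt overlap.

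Beyond the globins, a list of 56 red cell genes was examined, of which 55 had a named probe and 25 were detected on all 6 arrays. In Sox4 cKO and Sox11 cKO 0 of the 55 passed an adjusted p under 0.05. In dcKO 0 were higher and 1 was lower, against 0.828% of all probes that passed this threshold in dcKO, and none was called with the fold change threshold. An unadjusted p under 0.05 was reached by 5, 7 and 9 of the 55 genes in Sox4 cKO, Sox11 cKO and dcKO. Among all 55681 probes the counts were 3434, 3922 and 5506. The gene counts take the brightest probe of each gene and the probe counts take every probe, detected or not, so their bases differ. The median log2 fold change was −0.02, −0.01 and −0.03 in the 3 genotypes. Of the 7 erythroid transcription factors 1 was detected on all arrays, and of the 16 genes of the red cell membrane and its skeleton 2. Gata1 and Klf1, which encode erythroid transcription factors, were well above background in 0 of the 12 samples. The lowest adjusted p among the 7 factors was 0.0558 in limma, in dcKO, just short of the threshold. The genes of the other steps of haem synthesis, all 7 detected, had medians of 0.11, −0.01 and −0.03, and none passed (lowest adjusted p = 0.342).

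The gene that passed was Slc25a37, which encodes mitoferrin 1, the carrier that brings iron into mitochondria. Its brighter probe (A_51_P343429) gave −0.26 and 0.08 in Sox4 cKO, −0.15 and 1.09 in Sox11 cKO and −1.84 and −0.56 in dcKO. Its second probe (A_55_P2032445) gave −0.31 and 0.20, 0.07 and 0.78, and −1.55 and −0.71. Both probes were lower on both dcKO arrays, and the Sox4 cKO arrays lay on both sides of 0. In dcKO the means were −1.20 ± 0.90 (SD, n = 2, adjusted p = 0.0209 in limma) and −1.13 ± 0.59 (adjusted p = 0.00722), short of the fold change threshold. The difference from Sox11 cKO was −1.67 (adjusted p = 0.0637) and −1.55 (adjusted p = 0.0194), and the difference from Sox4 cKO was −1.11 (adjusted p = 0.361) and −1.07 (adjusted p = 0.125). Slc25a37 did not follow Hba-a1, which was lower on dcKO replicate 1 and higher on replicate 2. For the brighter probe the log2 fold change stayed between −1.44 and −0.96 over the alternatives, with adjusted p from 0.00194 to 0.367. It missed the threshold without dcKO replicate 1 (adjusted p = 0.316), without the replicate block (adjusted p = 0.287) and with the ratio of the scanner software (adjusted p = 0.367).

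**Figure D5:**
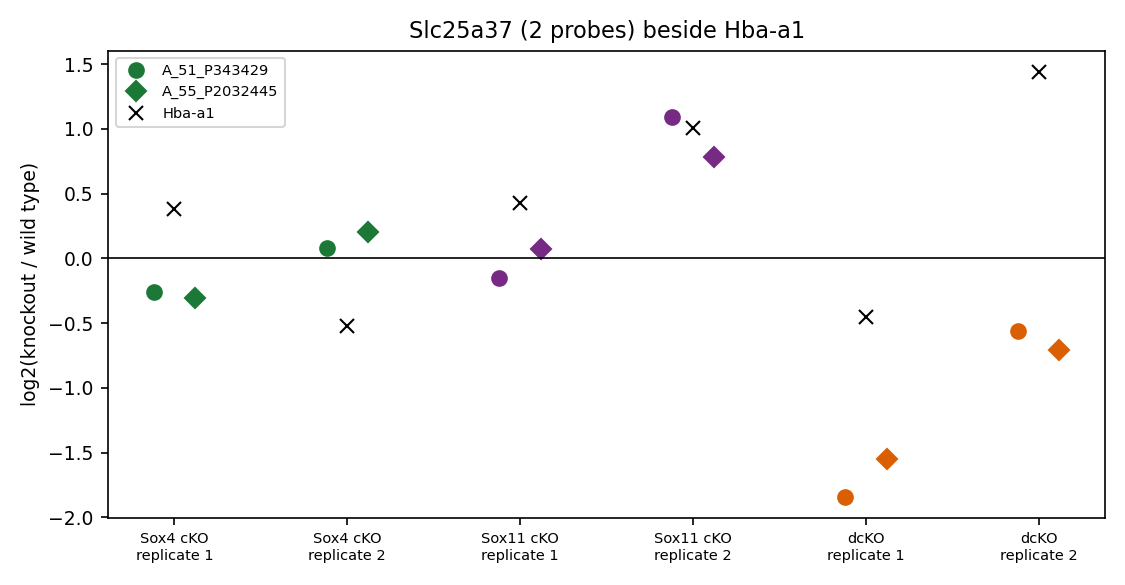
log2(knockout/wild type) of both Slc25a37 probes (circles A_51_P343429, diamonds A_55_P2032445) beside Hba-a1 (crosses) on the 6 arrays (x axis). Both probes lie below 0 on both dcKO arrays, while Hba-a1 goes from −0.45 to 1.44.

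Of the other genes of the list, Hemgn and Tfrc did not share the sign of Hba-a1 on every array. Hemgn, encoding the erythroid nuclear protein hemogen, gave 0.31 and −0.36, 0.32 and −0.34, and 0.33 and −0.79, so that it was higher on every replicate 1, with the knockout in Cy5, lower on every replicate 2, and shared the sign of Hba-a1 on 3 of 6. Tfrc, the transferrin receptor by which cells take up iron, gave −0.45 and −0.17 in dcKO by its brightest probe, with a mean of −0.31 (adjusted p = 0.528 in limma).

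Markers of other cells were set beside these values. The 6 keratinocyte genes were all detected, and their median log2(knockout/wild type) stayed between −0.02 and 0.45 on the 6 arrays. Of the 8 endothelial markers 1 was detected on all arrays, of the 6 platelet markers 2, of the 8 leukocyte markers 4 and of the 6 fetal liver cell markers 1. Their summed levels on the linear scale ranged from 388 to 446 in the wild types and 376 to 417 in the knockouts for endothelium, from 246 to 433 and 208 to 296 for platelets, from 550 to 1250 and 572 to 1170 for leukocytes and from 253 to 386 and 240 to 395 for fetal liver cells. These sums include the genes not detected on all arrays, whose signal is partly background, so they do not measure the amount of these cells. On dcKO replicate 2, where Hba-a1 gave 1.44, the platelet list had a median of 0.43, with 4 of 6 genes higher. Of those 4, Gp1ba, Gp9 and Itga2b were not well above background there. The 2 detected platelet genes, Pf4 and Gp1bb, gave 0.38 and −0.01. The leukocyte list had a median of 0.41 on this array, with 7 of 8 genes higher. Medians of the endothelial and fetal liver lists there were −0.06 and −0.05. On the other 5 arrays the medians lay between −0.37 and −0.07 for platelets and between −0.19 and 0.02 for leukocytes. The skeletal muscle list, of which 2 of 6 genes were detected, had medians of −2.06 on Sox4 cKO replicate 1 and −0.93 on dcKO replicate 2, and of −0.21 to 0.20 on the other 4 arrays. The dermal fibroblast list, of which 6 of 8 genes were detected, had medians of −2.23 and 0.61 in Sox4 cKO, 0.80 and −0.45 in Sox11 cKO and −1.20 and −1.30 in dcKO. Its signs matched those of Hba-a1 on 2 of the 6 arrays, and the part of any of these cells in the red cell values was not tested.

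Facts of the whole series bear on these values in a few points. The share of spots well above background was 38.9% to 43.6% per channel, and no spot was saturated. The dimmer Sox4 probe was well above background in all wild types and in 0 of the 4 knockout samples of Sox4 cKO and dcKO, which put Sox4 cKO at least 3.05-fold (adjusted p = 0.0289 in limma) and dcKO at least 3-fold (adjusted p = 0.00228) below the wild type. The brighter Sox4 probe had log2 fold changes of −0.42 (adjusted p = 0.804) and −0.82 (adjusted p = 0.0777). Sox11 was measured too close to background by its 2 probes for a check of that genotype.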

How the data were processed

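The authors extracted the scans with Agilent Feature Extraction 11.0.1.1, and the deposited scanner files give each spot's median intensity in Cy5 and Cy3 with its local background, not yet normalized, plus a log10 ratio that this program computed. The deposited series table holds 1 log2 value per probe and array. It matched log2(knockout/wild type) computed here from the scanner files (r of 0.99995 or higher). The study's methods name limma, normexp with an offset of 16, loess and removal of a colour effect.

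Here the intensities were processed in R 4.3.3 with limma 3.58.1, with the same normexp offset and loess, and a dye coefficient in the fit took the place of the colour removal. Outlier spots and control spots were left out and spots of 1 probe averaged, which gave 55681 probes. All 6 arrays entered a linear model with a coefficient for each genotype and a dye coefficient, and variances were moderated by empirical Bayes (residual degrees of freedom 2, prior 6.63). P-values were two-sided and Benjamini-Hochberg adjusted over all probes. Calls needed an adjusted p under 0.05 together with a log2 fold change beyond 1.5 in either direction. Levels were taken per channel after loess and Aquantile normalization. The fit was tested on simulated data.

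The labels call the 2 arrays of a genotype biological replicates. Replicate number and dye orientation coincide, so the dye coefficient is also the replicate block. Same-numbered arrays deviated together, with r of 0.26, 0.31 and 0.33 over probes between the genotypes, and the pairing comes from the labels' replicate numbers. The labels do not say whether wild-type RNA was shared between arrays, and p-values measure only the spread between these samples. The number of arrays limits the precision.

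Probes were named through RefSeq accessions of GRCm38.p6 (28341 of 55681 probes). For genes with more than 1 probe the brightest was taken, and Hbb-y is given by both. The members, lists and comparisons were chosen with earlier results of these data known. Named were all members with a probe, red cell list genes that were called or detected on all arrays, markers beside a result, and the 10 genes most like the mean member profile. Gata1, Klf1 and the second Slc25a37 probe were named outside that rule, after their values were seen. A gene counted as detected where it was well above background in at least 1 channel on all 6 arrays. Alternatives were the fit without the replicate block, the ComBat method in place of the dye coefficient, an offset of 50, no background subtraction, the Feature Extraction ratio, the series table, a filter on dim probes, median centring, leaving out each array, each comparison's own arrays, and all probes of a gene averaged.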

Additional observations from a re-analysis of the deposited data

Results flagged for a closer look

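The wild-type level of Hba-a2 on Sox11 cKO replicate 2 was 14.02 on the log2 scale, apart from the other 5 wild types, which lay between 15.02 and 15.57. It was the 1 flag among 11 probes examined in this way over the 6 wild-type samples, and chance alone marks about 1 in 20. The knockout on that array was at 14.78, the lowest of the 6 knockouts. The levels of Hba-a1, Hbb-b1 and Hbb-bt were lowest in the wild type of the same array too.

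Hba-x was higher than the wild type on both Sox4 cKO arrays (0.05 and 0.19) and lower on both dcKO arrays (−0.20 and −0.06). The difference, dcKO minus Sox4 cKO, was −0.25 ± 0.26 (SE) on the log2 scale and did not pass the threshold in limma (adjusted p = 0.94). It was 1 of 27 such comparisons of globin and red cell genes between genotypes, and the knockout was well above background on 1 of the 2 dcKO arrays.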

How the results depend on the processing

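No member probe was called under any alternative, except Alas2 in dcKO without dcKO replicate 1. The fit without the replicate block called no member probe either. Apart from leaving out an array, 3 of 213 gene values turned sign, all of them near 0: Hba-a1 in Sox4 cKO (0.16) and Slc25a37 in Sox4 cKO (0.09) with median centring, and Hbb-bh1 in dcKO (0.18) with the Feature Extraction ratio. The list's medians moved by less than the spread between replicates under those settings.

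Leaving out 1 array at a time turned the sign of many values. A genotype left with 1 array took its value from that array's ratio, shifted by the dye coefficient fitted on the other arrays. For most genes of the list the 2 arrays of a genotype had opposite signs. Because of the shift, a value could lie beyond both ratios of its genotype. In Sox4 cKO the values ran from −1.14 to 0.99 for Hba-a1, −0.87 to 0.96 for Alas2, −0.78 to 1.38 for Slc4a1, −0.13 to 0.37 for Hba-x, −0.71 to 0.93 and −0.34 to 0.83 for the Hbb-y probes and −0.54 to 0.37 for Slc25a37, and the list's median from −0.32 to 0.50. In Sox11 cKO they ran from −0.38 to 0.62 for Hba-x, −0.16 to 0.75 for the brighter Hbb-y probe, −0.39 to 0.03 for Slc4a1 and −0.40 to 0.28 for Hbb-bh1, with a median from −0.07 to 0.63, while Hba-a1 stayed between 0.68 and 0.76. In dcKO they ran from −0.53 to 1.52 for Hba-a1, −0.55 to 1.60 for Alas2, −0.80 to 0.94 for Slc4a1, −0.38 to 0.12 for Hba-x, −0.56 to 0.17 and −0.70 to 0.20 for the Hbb-y probes and −0.34 to 0.25 for Hbb-bh1, with a median from −0.46 to 0.60. A genotype left with 1 array was assumed to vary like the others.

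Counts over all probes moved more. Leaving out 1 array gave 0 to 26 calls in Sox4 cKO, 1 to 43 in Sox11 cKO, 42 to 130 for dcKO minus Sox4 cKO, 42 to 152 for dcKO minus Sox11 cKO and 0 to 8 for Sox4 cKO minus Sox11 cKO. Against main counts of 3, 0, 115, 73, 76 and 1, in the order Sox4 cKO, Sox11 cKO, dcKO, dcKO minus Sox4 cKO, dcKO minus Sox11 cKO and Sox4 cKO minus Sox11 cKO, the Feature Extraction ratio gave 0 in each. No background subtraction gave 1 in Sox4 cKO, 7 in Sox11 cKO and 2 between the single knockouts, an offset of 50 gave 0 in Sox4 cKO and 1 in Sox11 cKO, and median centring gave 1 in Sox11 cKO and 2 between the single knockouts. The filter on dim probes gave 0 in Sox4 cKO and 0 between the single knockouts. Each comparison's own arrays gave 5 in Sox4 cKO, 2 in Sox11 cKO and 7 between the single knockouts. Without the replicate block there were 46 for dcKO minus Sox4 cKO and 0 between the single knockouts.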

Other observations

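The genes outside the red cell and marker lists whose log2(knockout/wild type) over the 6 arrays was most like the mean of the 6 member genes were Prr12 (r = 0.991), Xlr3b (0.978), Ccdc117 (0.973), Cenpn (0.969), Inip (0.965), Tmem11 (0.953), Ap3m1 (0.949), Zfp189 (0.949), Gpatch1 (0.947) and Neurl2 (0.944), out of 11105 genes detected on every array. The points are 6 arrays, of which pairs share a genotype, and the ranking is a description. The mean joins Hba-a1 with Hbb-y, whose signs were mostly opposite, and with Hbb-bh1, which lay near background. Rankings against Hba-a1 or Hbb-y alone put other genes first. Most of them moved little. Prr12 ranged from −0.21 to 0.32, and Tmem11 from −0.15 to 0.04. Xlr3b, a gene of an X-linked lymphocyte-regulated family, moved by as much as the globins, with 0.73 and −0.23 in Sox4 cKO, 0.66 and 0.76 in Sox11 cKO and −1.45 and 1.83 in dcKO.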
